A study of Homo sapiens with 12 samples.

Results

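The miR-26 family was examined in 12 small RNA libraries of pancreatic ductal adenocarcinoma (PDAC) cells. Its 5 members are the mature arms of the hairpins mir-26a-1, mir-26a-2 and mir-26b, and they were taken by name: hsa-mir-26a-5p, hsa-mir-26a-1-3p, hsa-mir-26a-2-3p, hsa-mir-26b-5p and hsa-mir-26b-3p. They are 5 of the 1733 miRNAs listed in the series, and all 5 were listed in every library. The study asked how depletion of MYEOV (myeloma overexpressed gene) alters miRNA expression. AsPC-1 and PANC-1 are established human PDAC cell lines, AsPC-1 grown in RPMI 1640 and PANC-1 in DMEM, both with fetal bovine serum. Each line gave 3 control and 3 MYEOV-knockdown libraries of total RNA prepared, by the labels, 48 h after siRNA transfection.

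The control libraries carry labels of untreated cells, whereas the transfection protocol names a negative-control siRNA, so control cells are described here only as control. The protocol lists siMYEOV-1 and siMYEOV-2, and the numbers on the knockdown libraries do not say which siRNA a library received. Nothing in the labels tells whether libraries of a group came from separate cultures, so the p-values measure the spread between these libraries, which may be technical. MYEOV mRNA is not measured by miRNA counts, and the knockdown itself was not checked here. In bulk RNA of this kind, fewer cells of a type and less RNA per cell cannot be told apart.

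A miRNA hairpin is cut into a duplex of a 5p and a 3p arm, of which the guide arm is usually retained in Argonaute and the other, the passenger arm, is mostly degraded. The seed near the 5′ end of a guide selects its mRNA targets. The miR-26 hairpins lie in introns of the CTDSP genes, which encode small phosphatases of the C-terminal domain of RNA polymerase II, and their 5p guides are known as growth-restraining miRNAs that target EZH2 and are repressed by MYC.

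The mature arms are shown first because their shared and differing bases decide which members can be told apart by counting. Sequences are RNA from the RefSeq miRNA table (GRCh38.p14), 5′ to 3′, with the seed (bases 2 to 8) in capitals, and all 5 members matched an entry.
hsa-mir-26a-5p: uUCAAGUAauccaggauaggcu
hsa-mir-26b-5p: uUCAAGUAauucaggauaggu
hsa-mir-26a-1-3p: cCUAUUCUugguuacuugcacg
hsa-mir-26a-2-3p: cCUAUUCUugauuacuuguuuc
hsa-mir-26b-3p: cCUGUUCUccauuacuuggcu

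The 2 guides share a seed and, over 21 compared positions counted from the 5′ end, differ by C11U and C21U from miR-26a-5p to miR-26b-5p. The 2 passenger arms of miR-26a also share a seed and their first 10 bases, and differ at 5 of 22 positions by G11A, C19U, A20U, C21U and G22C from miR-26a-1-3p to miR-26a-2-3p. From miR-26a-2-3p to miR-26b-3p the substitutions are A4G, U9C, G10C, U19G and U20C, and A4G lies in the seed. Among the other miRNAs of the table, only miR-1297 and miR-4465 have the seed of the miR-26 guides. MiR-1297 had at most 2 reads in any library and 9 in all, and miR-4465 was listed in none. The counted reads with this seed thus came almost wholly from miR-26a-5p and miR-26b-5p. The annotated miR-1297 is 17 bases long. This is below the shortest length kept by the paper's methods, so its low count does not tell its level.

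The hairpins are printed with both arms in capitals, since miR-26a-5p is cut from 2 of them while each 3p arm has 1 source.
MIR26A1: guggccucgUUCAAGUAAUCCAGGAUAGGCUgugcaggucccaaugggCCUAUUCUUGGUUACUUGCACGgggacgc
MIR26A2: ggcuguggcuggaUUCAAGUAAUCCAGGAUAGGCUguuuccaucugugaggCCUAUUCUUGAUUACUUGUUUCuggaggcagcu
MIR26B: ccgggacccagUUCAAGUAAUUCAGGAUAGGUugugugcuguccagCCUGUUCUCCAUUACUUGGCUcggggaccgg

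In GRCh37, the build the reads were mapped to, MIR26A1 lies at chr3:38010895-38010971 on the plus strand, in intron 5 of transcript CTDSPL-201, which has 8 exons. MIR26A2 lies at chr12:58218392-58218475 on the minus strand, in intron 5 of CTDSP2-201, which also has 8 exons. MIR26B lies at chr2:219267369-219267445 on the plus strand, in intron 4 of CTDSP1-201, which has 7 exons. None of the 3 hairpins overlapped an exon of any annotated transcript of its host, and each is on the strand of its host. The printed hairpin sequences equal those at the GRCh37 positions. Reads of miR-26a-5p from MIR26A1 and MIR26A2 are identical, and only the 3p arms separate these loci.

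The 6 AsPC-1 libraries held 5587106 to 7311783 counted reads each, whereas those of PANC-1 held 3805084 to 5049361. The floor of 3 counts is 0.410 to 0.788 CPM (counts scaled to library size), and floors and intervals of single counts cover counting error only, since PCR copies were not marked. The 5 epithelial miRNAs of the miR-200 family summed to 48678 to 52667 CPM in AsPC-1, but only to 212 to 276 CPM in PANC-1. The 6 blood-cell miRNAs, which cultured PDAC cells should lack, summed to 394 to 564 CPM over the 12 libraries, nearly all of it miR-486-5p, and miR-223-3p was at 0 in both control groups and in the PANC-1 knockdown group. MiR-144-3p was at 0 in the PANC-1 controls. The part of these marker differences in the results below was not tested.

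The miR-26 guides were among the most abundant miRNAs of both lines. MiR-26a-5p took 3.28 to 4.15% of reads in AsPC-1, where it ranked 7 in all 6 libraries, and 3.11 to 3.36% in PANC-1, where it ranked 4 or 5. MiR-26b-5p made up 1.16 to 1.39% of AsPC-1 reads but 0.675 to 0.790% of PANC-1 reads. The passenger arms were far rarer, at 37 to 362 reads per library for miR-26a-2-3p and miR-26b-3p and 5 to 49 reads for miR-26a-1-3p.

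In every one of the 12 libraries the order of reads was miR-26a-5p, miR-26b-5p, miR-26a-2-3p, miR-26b-3p and miR-26a-1-3p. Mature miRNAs are of about 1 length, so this order is also the order per length, although ligation and PCR can favour some sequences over others. The closest neighbours were miR-26a-2-3p and miR-26b-3p. In AsPC-1 control 2 they had 292 reads (95% exact Poisson interval 259 to 327) and 255 reads (225 to 288), and these intervals overlap.

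**Figure D1:**
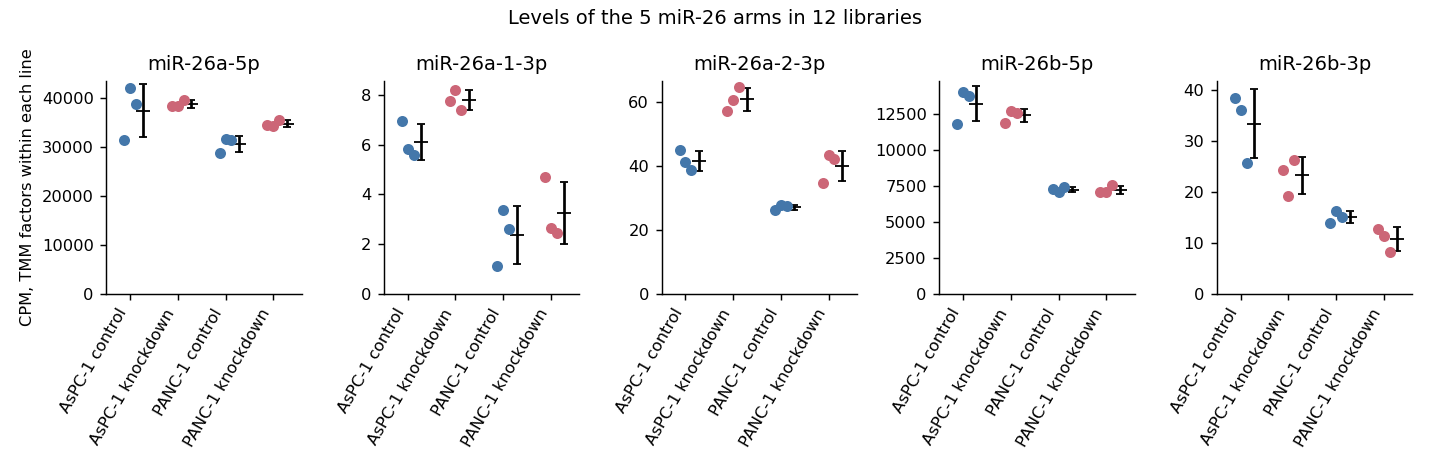
CPM of each miR-26 arm (vertical axes, linear from 0, TMM factors within each line) in the 4 groups, with 1 point per library and the mean ± SD (n = 3) beside them in black. Within each line, miR-26a-2-3p was higher in every knockdown library (red) than in every control library (blue). The lines were scaled separately here, and the miR-26a-5p level of AsPC-1 control 1, 31379 CPM, lies within the range of the PANC-1 controls.

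The first comparison set the control levels of the lines side by side, with the controls of both scaled together by TMM. All 5 members were lower in PANC-1 than in AsPC-1 controls and passed the test. This is to be read against a background in which 82.8% of the 627 miRNAs tested were called, with 293 higher and 226 lower in PANC-1 and a median log2 fold change (LFC) of 0.27. That split depended on the scaling, with 335 higher and 174 lower for total counts and 200 higher and 345 lower for upper-quartile factors, where the median LFC was -0.65. The groups did not overlap for any of the 5 members, which was also the case for 82.1% of all miRNAs tested. Cell line and culture medium differ together and cannot be told apart.

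The guide miR-26a-5p was at 36062, 47254 and 43008 CPM in AsPC-1 controls 1, 2 and 3 and at 26616, 29621 and 29482 CPM in PANC-1 controls. Its mean of 28573 ± 1696 CPM (SD, n = 3) in PANC-1 against 42108 ± 5650 CPM in AsPC-1 gave an LFC of -0.56 (SE 0.11, adjusted p = 0.000225). The spread was wider in AsPC-1, where control 1 was the lowest, but still above the highest PANC-1 control. MiR-26b-5p was at 13553, 15778 and 15291 CPM in AsPC-1 controls and at 6760, 6587 and 6930 CPM in PANC-1 controls, an LFC of -1.14 (SE 0.09, adjusted p = 2.96e-08). The 3 PANC-1 controls lay close together, below every AsPC-1 control.

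Of the passenger arms, miR-26a-2-3p averaged 47.1 ± 4.33 CPM in AsPC-1 and 25.3 ± 0.904 CPM in PANC-1 controls (LFC -0.89, SE 0.14, adjusted p = 2.69e-05). MiR-26b-3p averaged 37.7 ± 8.20 CPM in AsPC-1 and 14.0 ± 1.15 CPM in PANC-1 (LFC -1.42, SE 0.19, adjusted p = 5.88e-06). MiR-26a-1-3p, the only arm that reports MIR26A1 alone, averaged 6.91 ± 0.943 CPM in AsPC-1 and 2.21 ± 1.09 CPM in PANC-1 (LFC -1.61, SE 0.32, adjusted p = 0.00032). In the PANC-1 controls this arm rested on 5, 18 and 10 reads, and the 95% exact Poisson interval of the lowest count is 1.62 to 11.7 reads.

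The size of the differences between the lines depended on the scaling, while their direction did not. Scaling by total counts moved the LFC of all miRNAs by a median of 0.34 and left miR-26a-5p at -0.22 (adjusted p = 0.0456) and miR-26b-5p at -0.80. Upper-quartile factors moved all miRNAs by a median of -0.92 and put the same guides at -1.49 and -2.07. Under all 14 alternatives each member that was tested stayed lower in PANC-1 and was called.

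**Figure D2:**
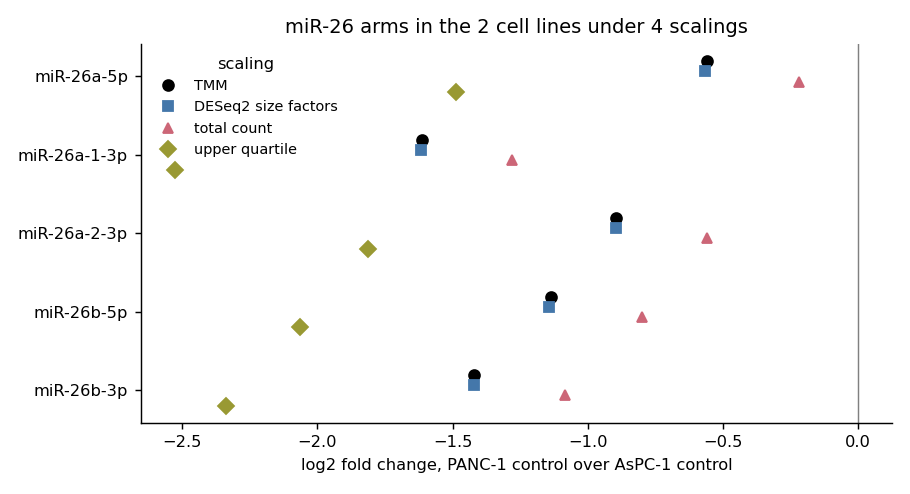
LFC of PANC-1 over AsPC-1 controls (horizontal axis, log2) for the 5 miR-26 arms, with 1 symbol for each of 4 scalings of the libraries. All symbols lie below 0, and miR-26a-5p ranges from -1.49 with upper-quartile factors to -0.22 with total counts.

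A ratio of reads within a library needs no scaling. The ratio of miR-26a-5p to miR-26b-5p was 2.66, 2.99 and 2.81 in AsPC-1 controls and 3.94, 4.50 and 4.25 in PANC-1 controls. The balance between the guides was thus shifted towards miR-26a-5p in PANC-1, with no overlap (log2 difference 0.58, SE 0.07, two-sided exact permutation p = 0.1, Benjamini-Hochberg adjusted p = 0.133). With 3 libraries against 3, an exact p cannot go below 0.1, and the adjusted values cover 12 such tests of 4 ratios in 3 comparisons.

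The ratio of miR-26a-1-3p to miR-26a-2-3p compares the 2 MIR26A hairpins through their passenger arms. It was 0.155, 0.140 and 0.144 in AsPC-1 controls and 0.0420, 0.122 and 0.0943 in PANC-1 controls, with no overlap (log2 difference -0.90, SE 0.47, exact permutation p = 0.1, adjusted p = 0.133). Without PANC-1 control 1, which had 5 reads of miR-26a-1-3p, the difference was -0.45. Reads of miR-26a-2-3p thus outnumbered those of miR-26a-1-3p in every control library. Differences in stability of the arms were not measured, so the ratio is not a ratio of transcription.

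The ratio of guide to passenger differed less between the lines. For miR-26a it was 789 ± 160 reads of 5p per read of the 2 3p arms in AsPC-1 controls and 1039 ± 17.7 in PANC-1 controls (log2 difference 0.42, SE 0.18, no overlap, exact permutation p = 0.1, adjusted p = 0.133), and the difference was 0.24 without AsPC-1 control 1. For miR-26b it was 411 ± 117 and 484 ± 46.1, and the groups overlapped (log2 difference 0.27, SE 0.25, exact permutation p = 0.4, adjusted p = 0.436). That difference was 0.0797 without AsPC-1 control 1 and 0.48 without AsPC-1 control 3. For a background, arm pairs were taken where the names end plainly in 5p and 3p and both arms were tested. MiR-26b is among these pairs, whereas miR-26a, whose 3p arms are numbered, is not. Of the 167 pairs in this comparison, 53.9% did not overlap between the lines.

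The second comparison asked how the family responded to MYEOV knockdown. In each line 1 of the 5 members was called, and in each it was miR-26a-2-3p, the passenger arm of MIR26A2, which rose. The share of all miRNAs called was 11.4% of 498 in AsPC-1 and 22.0% of 551 in PANC-1, so 1 of 5 members is near that background. In CPM, 2 of 5 members did not overlap between the groups in AsPC-1 and 3 of 5 in PANC-1, where 30.5% and 36.7% of all miRNAs did not.

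MiR-26a-2-3p was at 44.9, 41.3 and 38.7 CPM in AsPC-1 controls 1, 2 and 3 and at 57.2, 60.6 and 64.7 CPM in knockdown 1, 2 and 3. All 3 knockdown libraries were above all 3 controls, and the rise was 1.46-fold (LFC 0.55, SE 0.11, adjusted p = 0.00468). In PANC-1 it was at 26.2, 27.6 and 27.4 CPM in the controls and at 34.6, 43.4 and 42.1 CPM after knockdown. The groups were again separate, and the rise was 1.48-fold (LFC 0.57, SE 0.14, adjusted p = 0.00363).

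The reads behind this rise were 304, 292 and 277 in AsPC-1 controls and 332, 362 and 358 after knockdown. In PANC-1 they were 119, 147 and 106 in the controls and 133, 165 and 191 after knockdown. The raw reads of PANC-1 overlap between the groups, which differ in depth from library to library. MiR-26a-2-3p stayed called in both lines under each of the 14 alternatives, with LFCs of 0.45 to 0.61 for AsPC-1, of 0.42 to 0.65 for PANC-1, and with adjusted p-values up to 0.0428 and 0.0418.

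The other passenger arm of miR-26a, miR-26a-1-3p, did not pass the test. It was at 6.95, 5.80 and 5.59 CPM in AsPC-1 controls and at 7.75, 8.20 and 7.41 CPM after knockdown (LFC 0.35, SE 0.21, adjusted p = 0.309). These groups did not overlap, but they rest on 40 to 49 reads per library. In PANC-1 it was at 1.10, 3.38 and 2.59 CPM in the controls and 4.68, 2.63 and 2.42 CPM after knockdown, with overlap and an LFC of 0.42 (SE 0.39, adjusted p = 0.454). The LFC was 0.0623 without control 1, 0.0693 without knockdown 1 and 0.83 without control 2. Its 95% interval in PANC-1, -0.38 to 1.21, spans both no change and the size seen for miR-26a-2-3p.

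The guide of both hairpins, miR-26a-5p, did not pass in either line. It was at 31379, 41932 and 38707 CPM in AsPC-1 controls and at 38360, 38268 and 39598 CPM after knockdown (LFC 0.05, SE 0.10, adjusted p = 0.789), and control 1 lay below all other libraries. Without that library the LFC was -0.05. In PANC-1 the controls were at 28716, 31583 and 31375 CPM and the knockdown libraries at 34386, 34341 and 35562 CPM, with no overlap (LFC 0.19, SE 0.09, 95% interval 0.01 to 0.36, adjusted p = 0.125). With total counts this LFC was 0.04.

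MiR-26b-5p, the second guide, did not pass in either line. It was at 11793, 14001 and 13762 CPM in AsPC-1 controls and at 11880, 12718 and 12560 CPM after knockdown, with overlap (LFC -0.09, SE 0.08, 95% interval -0.27 to 0.09, adjusted p = 0.521). Without control 1, which was again the lowest, it was called at an LFC of -0.16 (adjusted p = 0.0206). With any 1 AsPC-1 library left out, its LFC ranged from -0.16 to -0.05. In PANC-1 it was at 7294, 7024 and 7375 CPM in the controls and at 7025, 7055 and 7525 CPM after knockdown (LFC -0.01, SE 0.08, 95% interval -0.17 to 0.16, adjusted p = 0.964).

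MiR-26b-3p, the passenger arm of MIR26B, had negative LFCs of similar size in both lines and missed the threshold in both. In AsPC-1 it was at 38.3, 36.1 and 25.6 CPM in the controls and at 24.3, 19.1 and 26.2 CPM after knockdown (LFC -0.52, SE 0.17, adjusted p = 0.0586). Control 3 lay below knockdown 3, and without control 3 the arm was called (LFC -0.68, adjusted p = 0.0222), whereas without knockdown 2 the LFC was -0.39 (adjusted p = 0.233). In PANC-1 it was at 13.9, 16.1 and 15.0 CPM in the controls and at 12.8, 11.3 and 8.15 CPM after knockdown, with no overlap (LFC -0.50, SE 0.20, adjusted p = 0.0734). Without PANC-1 control 1 it was called at an LFC of -0.57 (adjusted p = 0.0443), whereas without knockdown 3 the LFC shrank to -0.32 (adjusted p = 0.295).

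**Figure D3:**
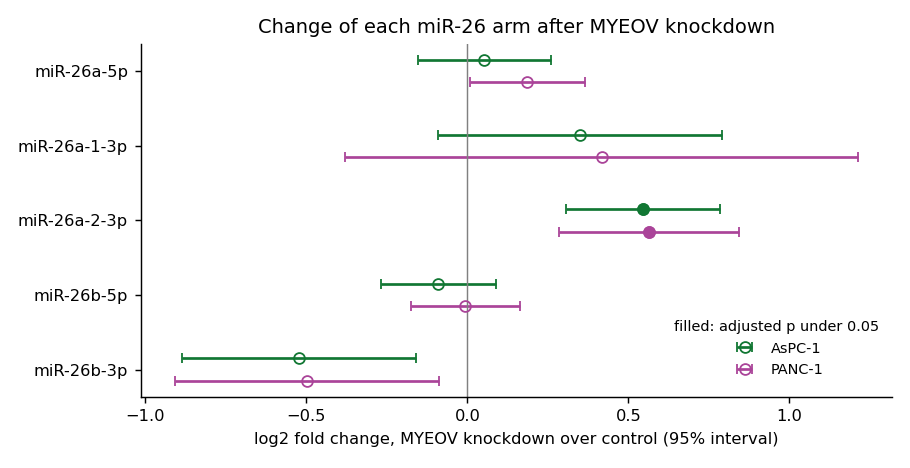
LFC of MYEOV knockdown over control (horizontal axis, log2) with its 95% interval for the 5 miR-26 arms in AsPC-1 (green) and PANC-1 (purple), filled where the adjusted p was under 0.05. MiR-26a-2-3p is the only filled arm in both lines, at 0.55 and 0.57, and the intervals of miR-26b-3p lie below 0 although its adjusted p-values of 0.0586 and 0.0734 missed the threshold.

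Ratios within libraries were compared next, since they do not depend on scaling. For miR-26a, reads of 5p per read of the 2 3p arms were 605, 890 and 873 in AsPC-1 controls and 591, 556 and 549 after knockdown. In PANC-1 the ratio was 1053, 1019 and 1046 in the controls and 875, 746 and 799 after knockdown. Each knockdown library was below each control of its line, although AsPC-1 control 1 lay close to knockdown 1. Most reads of the 2 3p arms were of miR-26a-2-3p, so this ratio is not independent of the rise of that arm. The log2 differences were -0.46 (SE 0.18) and -0.37 (SE 0.07), each with an exact permutation p = 0.1 and an adjusted p = 0.133.

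For miR-26b, reads of 5p per read of 3p were 308, 388 and 538 in AsPC-1 controls and 489, 667 and 480 after knockdown. These groups overlapped (log2 difference 0.43, SE 0.28, exact permutation p = 0.3, adjusted p = 0.36), and the difference was 0.24 without control 1 and 0.27 without knockdown 2. In PANC-1 the ratio was 526, 435 and 492 in the controls and 551, 624 and 923 after knockdown, with no overlap (log2 difference 0.50, SE 0.24, exact permutation p = 0.1, adjusted p = 0.133), and the difference was 0.28 without knockdown 3. Among the plainly named pairs of a 5p and a 3p arm, 29.9% of 127 in AsPC-1 and 29.3% of 150 in PANC-1 did not overlap. The size of the miR-26b difference was at percentile 71.7 and 77.3 of these pairs.

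The passenger arms of miR-26a-2 and miR-26b thus stood on opposite sides of 0. The ratio of miR-26a-2-3p to miR-26b-3p was 1.17, 1.15 and 1.51 in AsPC-1 controls and 2.35, 3.18 and 2.47 after knockdown. In PANC-1 it was 1.89, 1.71 and 1.83 in the controls and 2.71, 3.84 and 5.16 after knockdown. The groups were separate in both lines, with a log2 difference of 1.06 in each (SE 0.19 and 0.27). This ratio was chosen after its values were seen and was given no test.

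The balance between the guides moved by less. The ratio of miR-26a-5p to miR-26b-5p was 2.66, 2.99 and 2.81 in AsPC-1 controls and 3.23, 3.01 and 3.15 after knockdown. In PANC-1 it went from 3.94, 4.50 and 4.25 to 4.89, 4.87 and 4.73. The knockdown libraries were above the controls in both lines, with log2 differences of 0.15 (SE 0.06) and 0.19 (SE 0.06), an exact permutation p = 0.1 and an adjusted p = 0.133 in each. AsPC-1 knockdown 2 and control 2 were nearly level.

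The ratio of miR-26a-1-3p to miR-26a-2-3p averaged 0.146 ± 0.00732 in AsPC-1 controls and 0.128 ± 0.0121 after knockdown, with no overlap (log2 difference -0.19, SE 0.09, exact permutation p = 0.1, adjusted p = 0.133), and the difference was -0.11 without knockdown 3. In PANC-1 it averaged 0.0863 ± 0.0408 and 0.0845 ± 0.0440, with wide overlap (log2 difference -0.01, SE 0.61, exact permutation p = 1). The low reads of miR-26a-1-3p left this ratio imprecise in PANC-1.

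**Figure D4:**
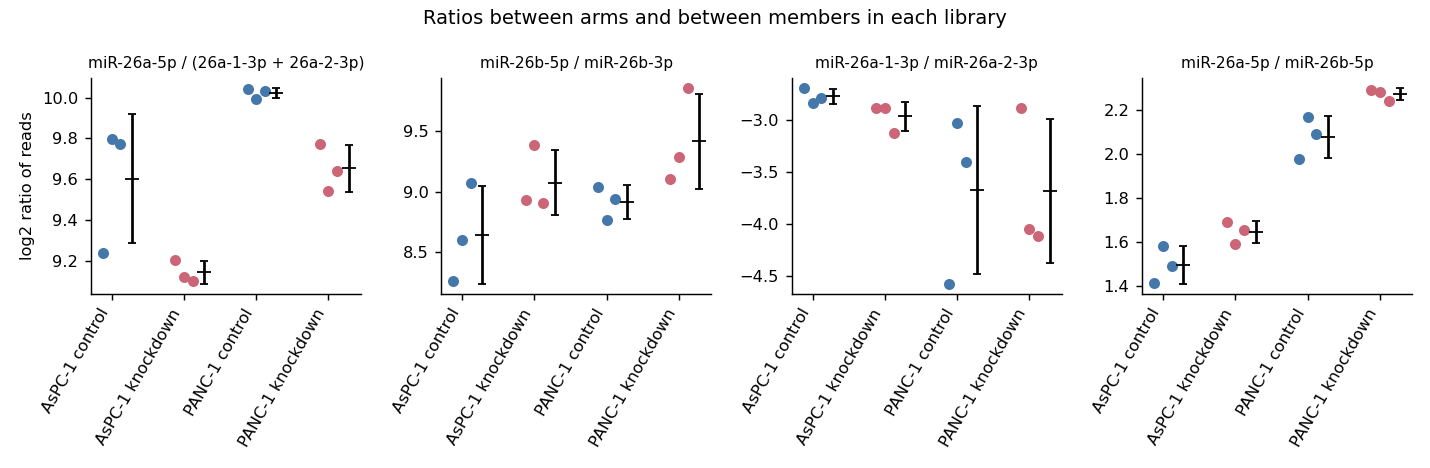
Log2 ratio of reads (vertical axes) in each library for 4 ratios of miR-26 arms, with 1 point per library (blue control, red knockdown) and the mean ± SD (n = 3) in black. The knockdown libraries lie below the controls for miR-26a-5p over its 3p arms and above them for miR-26a-5p over miR-26b-5p in both lines, while the AsPC-1 groups of miR-26b-5p over miR-26b-3p overlap.

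Other hairpins also had a called passenger arm beside a guide that was not called. Of the 127 arm pairs in AsPC-1, the less abundant arm was called and the more abundant arm was not in 18, the more abundant arm alone was called in 10, and both were called in 2. Of the 150 pairs in PANC-1, the less abundant arm alone was called in 28, the more abundant arm alone in 31, and both in 5.

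**Figure D5:**
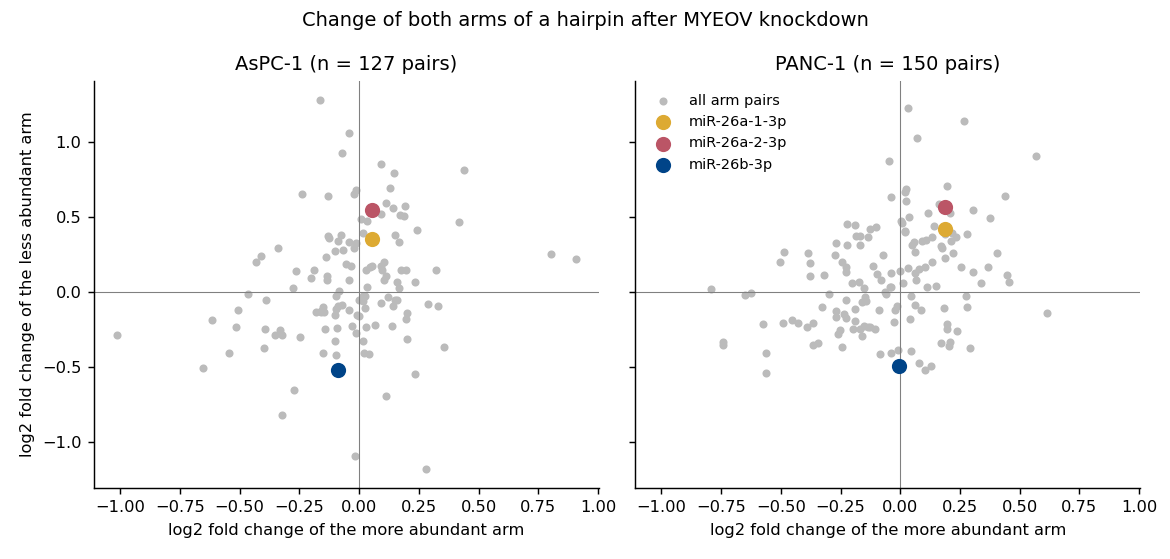
LFC of MYEOV knockdown over control for the more abundant arm (horizontal axis, log2) and the less abundant arm (vertical axis, log2). Each grey point is 1 plainly named arm pair, and the 3 miR-26 passenger arms are in colour against their guides. MiR-26a-2-3p lies at 0.55 and 0.57 on the vertical axis and miR-26b-3p at -0.52 and -0.50, while their guides lie between -0.09 and 0.19.

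Whether the knockdown effect differed between the lines was tested as the interaction of line and treatment over all 12 libraries. None of the 5 members was called, where 0.308% of 650 miRNAs (2) were called at the adjusted threshold and 74 had an unadjusted p under 0.05. No member had an unadjusted p under 0.05 or was called by DESeq2's Wald test. For miR-26a-2-3p the effect in AsPC-1 minus that in PANC-1 was -0.12 on the log2 scale (95% interval -0.51 to 0.28, adjusted p = 0.866). For miR-26b-3p it was -0.13 (-0.69 to 0.42, adjusted p = 0.931), and for miR-26a-5p -0.22 (-0.50 to 0.05, adjusted p = 0.56). The median of all miRNAs in this test was -0.12, and with total counts, which moved the values of all miRNAs by a median of 0.23, all 5 members had values at or above 0.

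Other guides that MYC is known to repress, such as let-7, miR-29 and miR-30 members, give context for the miR-26 guides. Of 25 such guides, 0 were called in AsPC-1 (median LFC 0.02, against -0.00467 over all miRNAs), where 11.4% of all miRNAs were called. Of these guides, 5 had an unadjusted p under 0.05 with edgeR, as had 123 of all 498 miRNAs. DESeq2's Wald test called 1 lower, the fit without a filter called 1 higher and 1 lower, and without AsPC-1 control 1 the test called 4 higher and 1 lower. Over all miRNAs these fits called 69 of 498, 75 of 1455 and 102 of 505, in that order. With all 12 libraries in one fit 1 of the listed guides was called lower, and the median LFC was -0.0872 for the list and -0.0739 for all miRNAs. The list's median was also below that of all miRNAs without control 1 (0.0143 against 0.0279) and without control 3 (0.00930 against 0.0205). In PANC-1, 5 of the 24 tested rose and 2 fell (median LFC 0.11, against 0.03), where 22.0% of all miRNAs were called. There 13 of the 24 had an unadjusted p under 0.05 with edgeR, as had 197 of all 551 miRNAs. Among the called guides the largest changes were in let-7c-5p, a growth-restraining let-7 member (LFC 0.32, adjusted p = 0.00713), and in miR-497-5p of the miR-15/16 seed group (LFC -0.41, adjusted p = 0.00713). With total counts 0 of these guides rose and 3 fell in PANC-1, where the median LFC was -0.03 for the list and -0.12 for all miRNAs, so the list's median remained above that of all miRNAs. Over all 551 miRNAs, 26 were then called higher and 117 lower. When 1 PANC-1 library was left out, the list's median LFC stayed between 0.09 and 0.16, while the calls varied. There were 0 higher and 1 lower without knockdown 2, 1 and 1 without knockdown 3, 2 and 1 without control 1 or control 2, 5 and 3 without control 3, and 6 and 1 without knockdown 1. Over all miRNAs, 68 of 569 were called without knockdown 2, 55 of 572 without knockdown 3 and 110 of 560 without control 1. The other fits called 82 of 567 without control 2, 129 of 574 without control 3 and 97 of 571 without knockdown 1.

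Of 9 guides that MYC is known to induce, from the miR-17-92 cluster and its relatives, 3 fell and 1 rose in AsPC-1 (median LFC -0.27), led by miR-17-5p (LFC -0.46) and miR-93-5p (LFC -0.40). Without knockdown 1 or without knockdown 3 none of the 9 was called in AsPC-1, and without knockdown 2 only 1 fell and 1 rose, with median LFCs of -0.25, -0.27 and -0.28. Over all miRNAs these fits called 24 of 519, 31 of 515 and 43 of 520, in that order. Without control 1 the calls on this list were again 3 lower and 1 higher, but its median LFC was -0.07, where 102 of 505 miRNAs were called. In PANC-1, 4 fell and none rose (median LFC -0.28), led by miR-17-5p (LFC -0.49) and miR-106b-5p (LFC -0.42). With total counts 8 fell in PANC-1, where 143 of all 551 miRNAs were called, 117 of them lower. Without knockdown 3 only 2 fell, where 55 of 572 miRNAs were called. With TMM and every library of the line, the shares called over all miRNAs were again 11.4% in AsPC-1 and 22.0% in PANC-1. Between the control lines, all 9 were lower in PANC-1 (6 with total counts), as were 13 of the 25 MYC-repressed guides, of which 8 were higher, where 82.8% of all miRNAs were called. Of these 25, total counts gave 13 lower and 11 higher and upper-quartile factors 20 lower and 5 higher. With TMM, lower levels in PANC-1 were thus shared by the miR-26 arms with all 9 MYC-induced but only 13 of the 25 MYC-repressed guides. Over all 627 miRNAs, 226 were called lower and 293 higher with this scaling.

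The miRNAs whose levels followed those of the miR-26 guides most closely were sought among 213 others with a mean of at least 100 CPM, over the 12 libraries after the mean of each line was taken away. For miR-26a-5p they were let-7g-5p (Pearson r = 0.913), let-7a-5p (r = 0.885) and let-7i-5p (r = 0.859). For miR-26b-5p they were miR-148b-3p (r = 0.869), miR-374a-3p (r = 0.862) and miR-335-3p (r = 0.828). The 2 miR-26 guides correlated with each other at r = 0.498. These values describe the 12 libraries, which share depth and scaling, and were given no test.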

How the data were processed

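Small RNA was sequenced in 3 control and 3 MYEOV-knockdown libraries of each line. The authors trimmed adapters and mapped reads to hg19 with Bowtie (version not given in the sources used here). They kept perfect matches within a set range of read lengths and deposited raw counts per mature miRNA. A count sums the most abundant sequence near the annotated 5′ end and those sharing its 5′ end, so isomiRs that start elsewhere and edited reads are left out. The labels and the paper's methods name different harvest times and sequencers, and the groups were used as labelled. A miRNA not listed in a library was set to 0.

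Differentially expressed miRNAs were computed with edgeR 4.0.16 in R 4.3.3 (filterByExpr with a minimum count of 10, TMM factors, quasi-likelihood F test, Benjamini-Hochberg adjustment over all miRNAs tested, threshold 0.05), without a replicate block. The SE is the absolute LFC divided by the square root of F. Ratios of raw reads were compared by two-sided exact permutation tests in Python 3.11.15 with scipy 1.17.1. No pair of libraries in a group agreed within sampling noise (chi-square per degree of freedom 9.28 to 278). The fits were tested on simulated data. Alternatives were DESeq2 1.42.0 size factors and its Wald test, total counts, upper-quartile factors, no filter, at least 10 counts in every library, the replicate block, all 12 libraries in one fit, and leaving out each library. For ratios, the alternatives were 0.5 reads added to each count and leaving out each library. The members, the lists of MYC-regulated guides and markers and the rule for named miRNAs (the 5 members, those sharing their seed, the 3 most alike, and up to 2 called per list and line with the largest LFC) were chosen with earlier results of these data known. Positions are from GRCh37 and its GENCODE annotation.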

Additional observations from a re-analysis of the deposited data

How the results depend on the processing

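MiR-26a-2-3p kept its rise and its call in both lines, and each member tested kept its lower level in PANC-1 controls, under all alternatives. In AsPC-1, 57 miRNAs were called, against 29 with the replicate block and 24 to 102 when 1 library was left out (102 without control 1, 24 without knockdown 1, 31 without knockdown 3). In PANC-1, 121 were called, against 67 with all 12 libraries in one fit and 55 to 129 when 1 library was left out (55 without knockdown 3, 68 without knockdown 2). The interaction called 2, against 4 with upper-quartile factors, 10 without a filter and 1 to 25 when 1 library was left out (25 without AsPC-1 control 1, 20 without AsPC-1 control 2, 13 without PANC-1 control 3, 5 without PANC-1 control 1, 1 without AsPC-1 knockdown 1). Between the control lines 519 were called, against 302 when 10 counts were required in every library, where 388 were tested.

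The number of members called rose from 1 to 2 in AsPC-1 with DESeq2's Wald test, without a filter and with all 12 libraries in one fit, in each case by miR-26b-3p (adjusted p = 0.0311, 0.0108 and 0.00921). It rose to 2 in PANC-1 with total counts, by miR-26b-3p (LFC -0.64, adjusted p = 0.0288), and with the replicate block, by miR-26a-5p (LFC 0.19, adjusted p = 0.0401). With 1 library left out it was 1 to 2 in each line. Total counts moved all LFCs in PANC-1 by a median of -0.15, and 18.2% of the calls were then higher, against 57.9% with TMM.

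Directions that turned were all of values that had not been called. In AsPC-1 miR-26a-5p was at -0.0389 with all 12 libraries in one fit and at -0.0501 to 0.137 when 1 library was left out. In PANC-1 miR-26b-5p was at 0.0370 with upper-quartile factors and at -0.0381 to 0.00926 when 1 library was left out. In the interaction, total counts put miR-26a-5p at 0.0014, miR-26a-1-3p at 0.0620, miR-26a-2-3p at 0.11, miR-26b-5p at 0.0506 and miR-26b-3p at 0.10. DESeq2 size factors put miR-26a-2-3p at 0.0476 and miR-26b-3p at 0.0407, its Wald test put them at 0.0473 and 0.0383, and requiring 10 counts in every library at 0.0188 and 0.0105. With 1 library left out, the interaction ranged from -0.54 to 0.22 for miR-26a-1-3p, from -0.28 to 0.0586 for miR-26b-3p and from -0.18 to 0.00444 for miR-26a-2-3p. MiR-26b-3p, which kept its sign, ranged from -0.68 to -0.39 for AsPC-1 and from -0.64 to -0.32 for PANC-1. The log2 ratio of miR-26a-1-3p to miR-26a-2-3p in PANC-1 ranged from -0.46 to 0.31, and its difference between the control lines from -1.22 to -0.45. The causes were not tested.

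The replicate numbers do not pair the libraries (correlations of same-numbered deviations -0.155 to 0.128 for AsPC-1, 0.0290 to 0.139 for PANC-1). The replicate block left 29 calls in AsPC-1 and gave 153 in PANC-1, where 9 of the MYC-repressed guides rose and 2 fell, and none of the 9 MYC-induced guides was then called in AsPC-1. In PANC-1 miR-26a-1-3p had no adjusted p with DESeq2 and was not tested when 10 counts were required in every library. It had 5 to 18 reads per library there.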
